A study of Mus musculus with 2254 samples.

Results

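The endothelin system genes described here are the ligand genes Edn1 and Edn3, the receptor genes Ednra and Ednrb, and the endothelin converting enzyme genes Ece1 and Ece2. They were chosen by name, as 6 of the 30950 genes listed in the count table. Their reads were followed through 2254 single cells that were taken from adult C57BL/6 mouse brain by fluorescence sorting and sequenced by Smart-seq2, which copies polyadenylated RNA over its full length. All mice carried SM22-Cre and Rosa26-stop-tdTomato, a red reporter switched on by a Cre under a smooth muscle promoter, and by their labels 1127 cells lacked Notch3 (KO) while 1127 had it intact (WT). KO cells came from plates 043, 467 and 471 and WT cells from plates 044, 468 and 469. Any cell that had once used the SM22 promoter can carry the reporter, and the sort gates and the fluorescence of single cells were not analysed here.

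Endothelins are short peptides that act on neighbouring cells. A ligand gene encodes a long precursor, which is cut to an inactive intermediate and then to the active peptide by membrane-bound endothelin converting enzymes. Ednra and Ednrb encode G protein-coupled receptors. On smooth muscle the Ednra receptor raises calcium and drives contraction, and in the brain the Ednrb receptor is known from astrocytes. The receptors also differ in ligand preference, since Ednra binds the Edn1 peptide more tightly than the Edn3 peptide whereas Ednrb binds them about equally.

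The stretches that encode the active peptides of both ligands are shown because the cell types that held Edn1 and Edn3 reads differed, while the peptides are close relatives. Each lies in exon 2, on the plus strand of GRCm38, and is written 5′ to 3′ from the GENCODE release M21 transcript, with the bases that differ between the genes in capitals. The Edn1 stretch lies at chr13:42303649-42303711 and the Edn3 stretch at chr2:174761749-174761811.
Edn1: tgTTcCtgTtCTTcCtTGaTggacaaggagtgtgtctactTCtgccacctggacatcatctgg
Edn3: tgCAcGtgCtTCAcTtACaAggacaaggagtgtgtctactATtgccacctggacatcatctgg
Of 63 bases, 13 differed, in 8 of 21 codons, and 6 of the 21 encoded residues differed. Of these 6 residues, 5 lie within the first 7 positions of the peptide and the other lies at position 14. The 4 cysteines, which form the disulfide bridges of an endothelin, were shared.

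The genes lie on 6 chromosomes in GRCm38. Edn1 spans chr13:42301476-42307990 on the plus strand, Edn3 chr2:174760619-174784042 on the plus strand, Ece1 chr4:137862237-137965229 on the plus strand and Ece2 chr16:20629828-20646485 on the plus strand. Ednra spans chr8:77663031-77724464 and Ednrb chr14:103814625-103844402, both on the minus strand. Exons of Ece2 shared 2937 bases with a same-strand gene model, Gm49333, which has no row in the table, so how reads of the shared exons were counted is unknown and the Ece2 values are uncertain. Overlaps with genes on the opposite strand were short, at 35 bases for Edn1 and 91 for Ednra, and the strand setting of the counting was not given in the sources used here.

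Levels are given as CPM, the reads of a gene summed over the cells of a group on a plate, divided by the reads of all genes in those cells and multiplied by 1000000. The 2252 cells kept had a median of 291872 reads, and plate medians ran from 250834 to 358168. A cell was placed in a marker group where 1 of 6 genes reached 100 CPM and at least 4 times each of the other 5. The groups were Cldn5 (endothelial, 177 cells), Myh11 (smooth muscle, 1150), Kcnj8 (pericyte, 19), Dcn (fibroblast, 170), Aqp4 (astrocyte, 256) and Ccdc153 (ependymal, 40). A further 39 cells held Myh11 and Kcnj8 at like levels, 41 were C1qa cells (macrophage or microglia), 17 were Mog cells (oligodendrocyte) and 343 stayed unassigned. A second assignment used panels of 6 other markers per type, and it gave the same group to 1682 of the 1730 cells that both assignments placed (97.2%). That share leaves out cells that either assignment did not place. Of 206 panel ependymal cells, 166 were unassigned by single markers, and 121 cells of the Myh11 group were unassigned by panels. A plate entered with at least 10 cells of a group. Animals are not named, so each genotype counted as 1 sample, no test was made, and SDs describe plates. Intervals on shares of cells cover the counting of pooled cells only, not differences between plates or animals. Reads without molecular identifiers are not independent molecules.

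Edn1 reads were concentrated in endothelial cells. In the Cldn5 group it stood at 75.8 CPM on plate 468 and 138 CPM on plate 469, with a read in 9 of 53 and 34 of 105 cells. A read was found in 29.9% of all Cldn5 cells and in 2% of Myh11 cells, at median depths of 325484 and 291096.5 reads. Under the panel assignment, endothelial cells of 4 plates gave 242 CPM on plate 043, 391 on plate 044, 85.4 on plate 468 and 145 on plate 469, a mean of 216 ± 133 CPM (SD over 4 plates). In the other assigned groups Edn1 was nearly absent. The Myh11 group reached at most 3.58 CPM, all from 1 cell of plate 468, the Dcn group at most 5.35 CPM and the Aqp4 group 0.471 and 4.34 CPM. Over all kept cells, Edn1 had 15673 reads in 131 cells, of which 56.8% lay in the Cldn5 group and 41.4% in unassigned cells. The unassigned cells gave 0.0724 to 175 CPM over 6 plates, with a mean of 67.5 CPM. Cells that the panels left unassigned gave 0 to 84.2 CPM.

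Within the endothelium, Edn1 was higher on the arterial side on 5 of 6 plates and in the pooled cells. Endothelial cells were cut by whether a list of arterial markers or a list of capillary and venous markers was higher, a cut along a range with 7 of 178 panel cells within 1 log2 unit of it. The 31 arterial cells gave 549 CPM and the other 147 gave 115 CPM. The arterial side held 13 KO and 18 WT cells and the other side 10 KO and 137 WT cells, so genotype and plate were mixed unevenly. Divided further, after the data were seen, the levels within KO were 765 and 96.4 CPM and within WT 370 and 116 CPM. On plates 043, 044, 467 and 471 the other side held 1 to 8 cells. Plate 469 gave 322 CPM in 7 arterial cells and 129.8 CPM in 92 others, while plate 468 gave 83.6 CPM in 3 arterial cells and 85.5 CPM in 43 others, so the order did not hold there. Over all plates, Edn1 had a read in 80.6% of arterial cells (95% Clopper-Pearson interval 62.5 to 92.5) and in 26.5% of the others (19.6 to 34.4). By plate, a read was found in 13 of 13 KO arterial cells, in 6 of 8 on plate 044, 1 of 3 on plate 468 and 5 of 7 on plate 469, against 8 of 43 and 29 of 92 of the other cells on plates 468 and 469. With 3 lists, an addition made after the data were seen, 29 arterial cells gave 585 CPM, 144 capillary cells 110 CPM and 5 venous cells 227 CPM, with a read in 2 of those 5.

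Edn3 had a wider range of sources, fibroblasts and endothelium. In the Dcn group the KO plates gave 107 CPM on plate 043, 240 on plate 467 and 85.0 on plate 471, and the WT plates gave 209 on plate 044, 644 on plate 468 and 229 on plate 469. Reads came from 25 of 60, 20 of 36, 6 of 29, 9 of 15, 11 of 19 and 7 of 11 cells on those plates in the same order. More than 1 cell thus held a read on every plate, and the part of the reads in the top cell is not given here. The Cldn5 group gave 209 CPM on plate 468 and 136 CPM on plate 469, within the range of the fibroblast plates. The Myh11 group stayed at or below 1.50 CPM, with a read in 1.74% of cells. Of 22886 Edn3 reads in 207 cells, 46.4% lay in the Dcn group, 41.4% in the Cldn5 group and 11.1% in unassigned cells.

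For Edn3 the order of the arterial side and the rest of the endothelium changed with the plate. Pooled arterial cells gave 143 CPM with a read in 41.9% of cells, and the other endothelial cells gave 164 CPM with a read in 36.1%. Plate 468 gave 289.9 CPM on the arterial side and 218 CPM in the rest, and plate 469 gave 0 CPM in 7 arterial cells and 156 CPM in the rest. After each cell was thinned to 50000 reads, 22 of the 177 Cldn5 cells held reads of both ligands, 29 of Edn1 alone, 32 of Edn3 alone and 94 of neither. Fibroblasts were also divided, after the data were seen, into 89 cells in which Slc6a13, a transporter of meningeal barrier cells, was at least as high as the matrix gene Lum and 81 cells in which Lum was higher, with 36 of the 170 cells near that cut. Edn3 stood at 254 CPM on the Slc6a13 side and 120 CPM on the Lum side, and it was higher on the Slc6a13 side on 5 of 6 plates. The exception was plate 471, with 5.86 CPM on the Slc6a13 side.

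**Figure D1:**
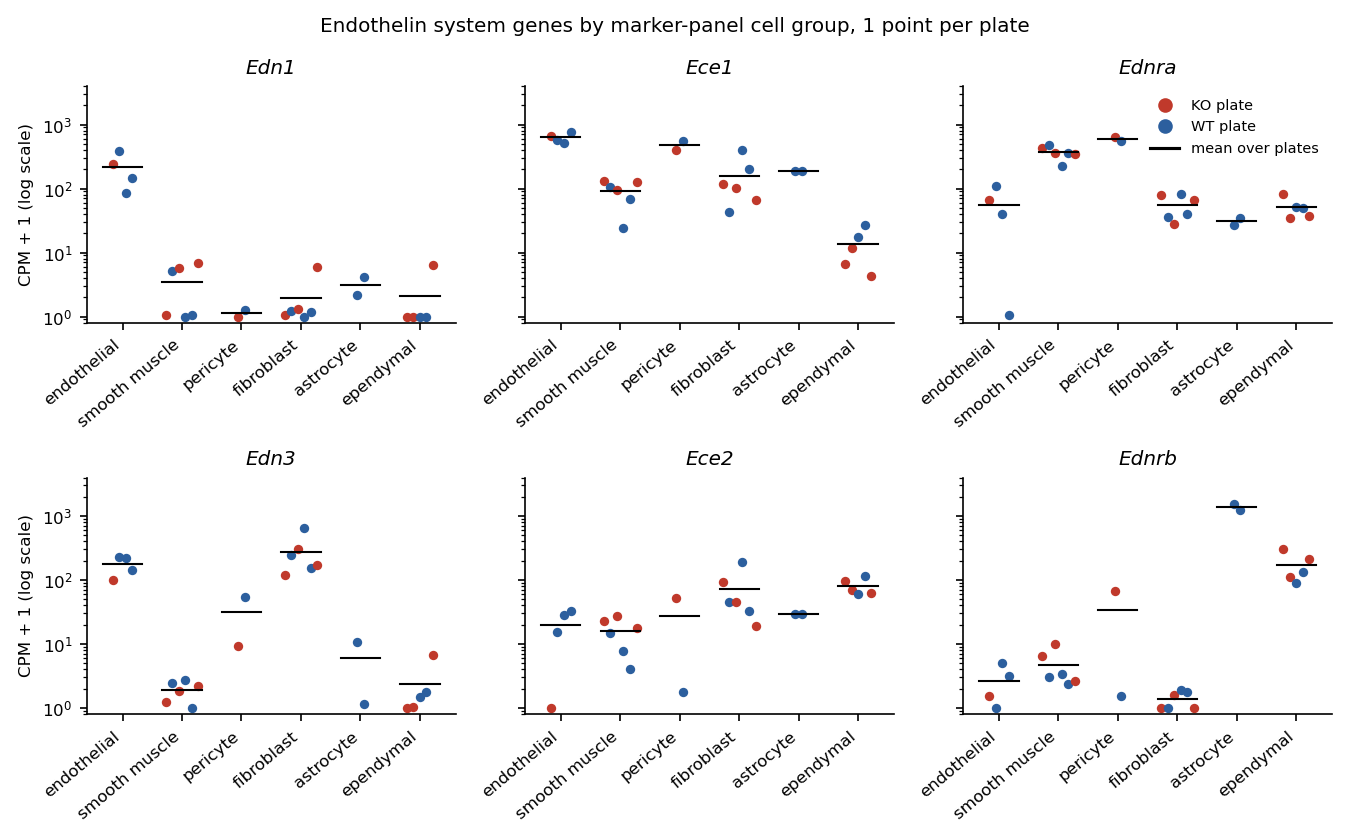
Level of each endothelin system gene (CPM + 1, log axis) by panel cell type, with 1 point per plate that held at least 10 cells of the type, red for KO and blue for WT plates, and a bar at the mean over plates. Edn1 is high in endothelial cells only (85.4 to 391 CPM), Edn3 in endothelial cells and fibroblasts, Ednra in smooth muscle cells and pericytes, and Ednrb in astrocytes (1516 and 1232 CPM).

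**Figure D2:**
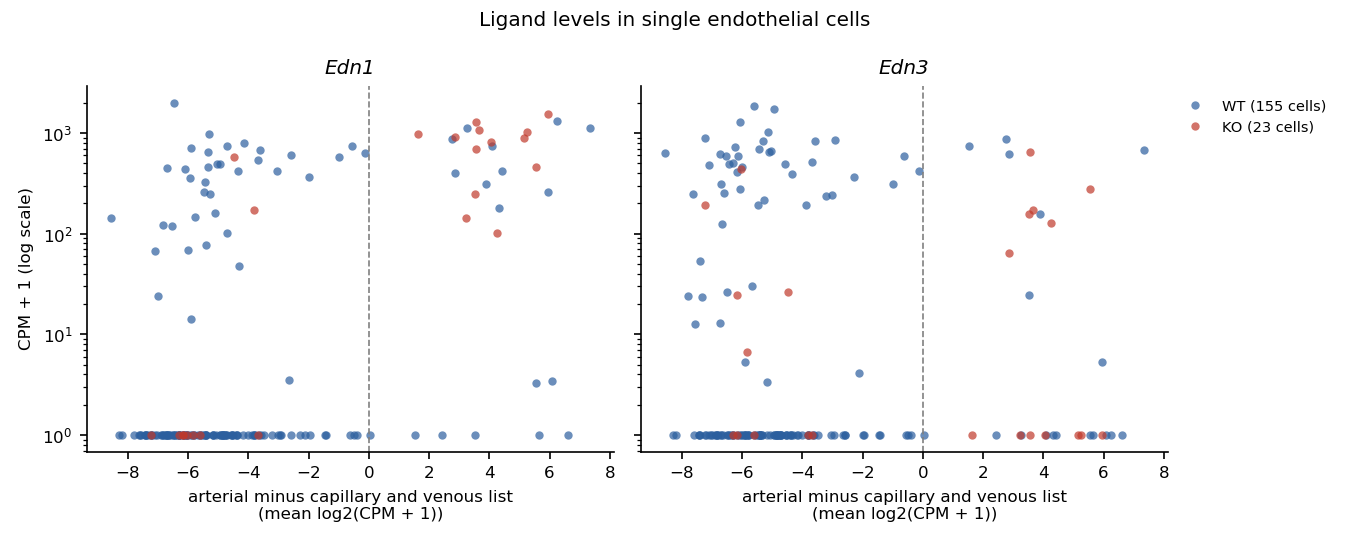
Edn1 and Edn3 (CPM + 1, log axis) in single panel endothelial cells against the mean log2 level of the arterial marker list minus that of the capillary and venous list, red for 23 KO and blue for 155 WT cells. Over all plates, to the right of the dashed line at 0, Edn1 has a read in 80.6% of cells against 26.5% to the left, while the shares for Edn3 are 41.9% and 36.1%.

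Ece1, the converting enzyme of the cell surface and secretory route, had its highest mean in endothelial cells, a source of both ligands. In the Cldn5 group it stood at 485 CPM on plate 468 and 730 CPM on plate 469, and panel endothelial cells gave 510 to 772 CPM over 4 plates (mean 627 ± 114, SD). Of the endothelial cells that held Edn1 after thinning, 88.2% also held Ece1, and of those that held Edn3, 87.0% did, close to the 87.0% of all Cldn5 cells. Panel pericytes came next with 405 CPM on plate 043 and 553 CPM on plate 468, a range that overlapped the endothelial plates. The 18 cells of plate 043 with both Myh11 and Kcnj8 gave 238 CPM, with a read in 15 of them. Aqp4 cells gave 179 and 209 CPM on plates 468 and 469. In the Myh11 group Ece1 stood at 140, 99.8 and 135 CPM on KO plates 043, 467 and 471 and at 111, 24.5 and 88.5 CPM on WT plates 044, 468 and 469. The Dcn group spread widest, from 35.1 to 465 CPM, and overlapped with smooth muscle and astrocytes. Ependymal cells by panel had the lowest mean of the 6 panel types described here, at 3.33 to 25.9 CPM, a range that overlapped smooth muscle at plate 468.

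Ece2, a related enzyme, was held by a minority of cells. The 18 cells of plate 043 with both Myh11 and Kcnj8 gave 128 CPM, with a read in 5 of them, the highest mean of any marker group. Panel ependymal cells stood at 58.5 to 113 CPM on 5 plates, the Dcn group at 19.0 to 142 CPM, the Cldn5 group at 32.2 and 30.3 CPM and the Myh11 group at 11.0 to 27.5 CPM. These ranges overlapped between ependymal cells and fibroblasts, and the ependymal plates all lay above the Cldn5 and Myh11 plates. Divided by exon length, so that the enzymes can be set side by side, Ece1 exceeded Ece2 in endothelium (118 against 3.63 CPM per kb of exon, means over panel plates) and in smooth muscle (17.1 against 2.92). In ependymal cells the order was the opposite, 2.34 CPM per kb for Ece1 and 15.6 for Ece2. The Ece2 side of each pair carries the uncertainty of its shared exons.

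Ednra marked the mural cells. In the Myh11 group it stood at 441, 371 and 368 CPM on KO plates 043, 467 and 471 and at 502, 246 and 382 CPM on WT plates 044, 468 and 469. The 18 cells of plate 043 with both Myh11 and Kcnj8 gave 673 CPM, the highest value of any marker group. In the Myh11 group Ednra had a read in 80% of the 1150 cells (75.3% after thinning to 50000 reads), against 2 of 41 C1qa cells, and 83.8% of its 165302 reads lay in that group. Pericytes by panel gave 639 CPM on plate 043 and 554 CPM on plate 468, with a read in 32 of 32 cells. Both values lay above every plate of the whole smooth muscle group. Smooth muscle cells with less than 100 CPM of Cnn1 reached 557 and 595 CPM on plates 043 and 044. Of the 64 panel pericytes, 18 lay in the Myh11 group and 11 held Myh11 and Kcnj8 at like levels. Smooth muscle panel genes summed to 6716 and 2370 CPM in panel pericytes of plates 043 and 468, against 12121 to 15258 CPM in panel smooth muscle. Per kb of exon, Ednra stood at a mean of 109 CPM in panel pericytes and 66.9 in panel smooth muscle, and at 9.91 or less in the 4 other panel types described here.

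Lower Ednra levels were found in other groups. The Dcn group gave 34.6 to 74.7 CPM, panel ependymal cells 33.3 to 80.7 CPM and Aqp4 cells 32.2 and 24.9 CPM, and C1qa cells gave 0 and 4.31 CPM. Panel endothelial cells ranged widest, at 65.5 CPM on plate 043, 108 on plate 044, 39.7 on plate 468 and 0.0566 on plate 469. Reads of smooth muscle genes were present in these groups too. The 6 smooth muscle panel genes (Acta2, Tagln, Cnn1, Myl9, Myocd and Mylk) summed to 308 to 2014 CPM in the Dcn group, 2.60% to 16.6% of their level in the Myh11 group, while Ednra stood at 7.88% to 30.4% of its level there. In panel ependymal cells the smooth muscle genes reached 1.39% to 14.8% and Ednra 9.18% to 22.2%, and in Aqp4 cells 0.143% to 0.389% and 6.52% to 13.1%. In panel endothelial cells the smooth muscle genes summed to 146 to 2060 CPM. Myocd or Cnn1 was at 0 on some of these plates, and the part of smooth muscle RNA in the low Ednra levels was not tested.

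Smooth muscle cells did not hold Ednra evenly. Cells of the Myh11 group were cut at 100 CPM of Cnn1, the contractile gene calponin, into 503 cells at or above and 647 below, with 37 cells within 2-fold of the cut. On plates 043, 044 and 467, Ednra stood at 314, 430 and 261 CPM in cells with more Cnn1 and at 557, 595 and 415 CPM in cells with less. On plates 468, 469 and 471 the pairs were 61.2 and 384, 300.1 and 438, and 281 and 434 CPM. Ednra was therefore higher in cells with less Cnn1 on 6 of 6 plates, by a mean log2 difference of 0.96 ± 0.83 (SD over 6 plates), with means of 470 and 275 CPM. The largest difference, 2.63, was that of plate 468, which held 34 Myh11 cells. Of 9595 genes measured, 696 were higher in the cells with less Cnn1 on every plate (7.25%). Ece1 shared that order on 6 of 6 plates (means of 120 and 74.4 CPM) and Ece2 on 5 of 6. Notch3 was also higher on 6 of 6 plates, and so was the pericyte panel gene Rgs5 (means of 3648 and 821 CPM). The part of pericyte RNA in the Ednra order was not tested. Of the 18 measured genes of endothelin processing and signalling listed further on, 2 were higher and 1 lower on every plate, where 5.76% of all genes measured were lower on every plate.

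**Figure D3:**
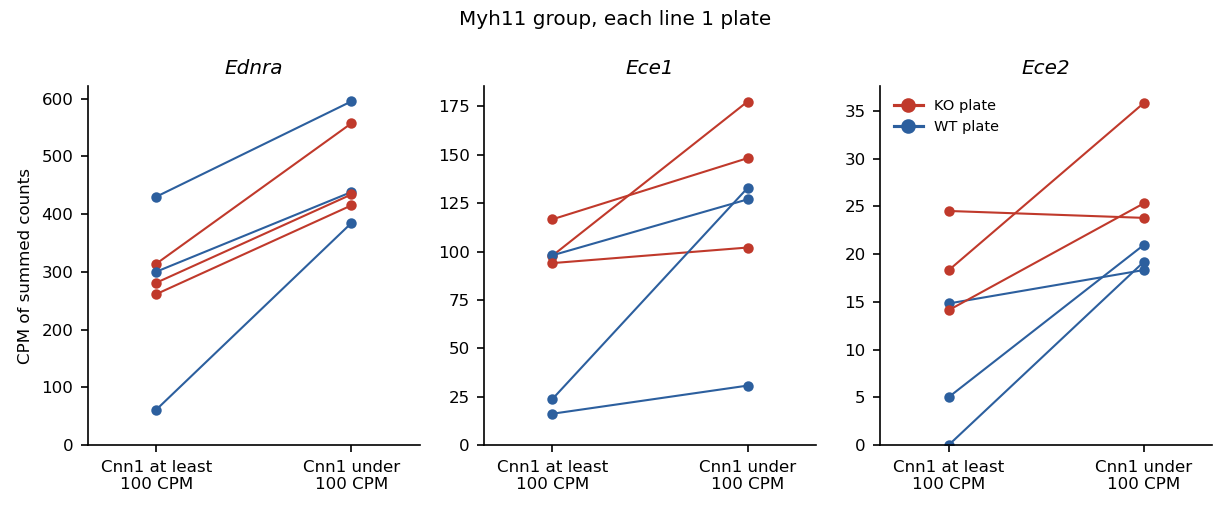
Ednra, Ece1 and Ece2 (CPM of summed counts) in Myh11 cells with Cnn1 at or above 100 CPM and below it, with a line joining the values of each plate, red for KO and blue for WT. Ednra and Ece1 are higher in the cells with less Cnn1 on 6 of 6 plates, and Ece2 on 5 of 6.

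In fibroblasts, Ednra was higher on the Lum side of the division described for Edn3. It stood at 59.97 to 252 CPM in the Lum cells and 0 to 46.0 CPM in the Slc6a13 cells and was higher in Lum cells on 6 of 6 plates, with 3 to 36 cells per plate and side. Of 11098 genes measured, 282 were higher in Lum cells on every plate (2.54%). Pooled, the levels were 97.6 and 19.9 CPM. Summed smooth muscle panel genes were 1471 CPM in Lum cells and 1145 CPM in Slc6a13 cells, and pericyte panel genes were 1800 and 2798 CPM. Their part in the Ednra difference was not tested. The ligand Edn3 and the receptor Ednra thus stood on opposite sides of the division in the pooled cells.

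Ednrb was the receptor of astrocytes. In the Aqp4 group it stood at 1723 CPM on plate 468 and 1592 CPM on plate 469, with a read in 166 of 167 and 85 of 86 cells, while 5.91% of Myh11 cells held a read. This group held 83.9% of the 130913 Ednrb reads. Cells with at least 100 CPM of Agt, the angiotensinogen gene, gave 1686 CPM and the 9 cells below gave 969 CPM, a cut added after the data were seen. Panel ependymal cells followed with 309, 110 and 212 CPM on KO plates 043, 467 and 471 and 89.9 and 133 CPM on WT plates 468 and 469. C1qa cells gave 69.5 and 110 CPM. Per kb of exon, panel astrocytes held a mean of 322 CPM of Ednrb against 5.40 of Ednra, and panel smooth muscle held 0.849 of Ednrb against 66.9 of Ednra.

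Ednrb was low in the Myh11 group and on most fibroblast plates. Across 6 plates the Myh11 group stood at 1.47 to 8.72 CPM, and 5 plates of the Dcn group stood at 0 to 1.17 CPM. Plate 468 gave 73.0 CPM in the Dcn group, with 84.9% of the reads in 1 cell. Between plates of the Myh11 group, the share of cells with a read differed more than the level. In that group the share was 32.4% on plate 468 and 18.3% on plate 469 but 1.78% to 5.83% on the other 4 plates. In the Dcn group the share was 31.6% and 27.3% against 0 to 2.78%. The Cldn5 group gave 6.01 and 18.7 CPM on plates 468 and 469, with a read in 32.1% and 29.5% of cells. Higher levels were found on plate 043, at 66.6 CPM in panel pericytes and 78.8 CPM in cells with both Myh11 and Kcnj8, where 3 of 19 and 2 of 18 cells held a read. Plates 468 and 469 held 167 and 86 Aqp4 cells and the others 0 to 2 (plate 043 held 1), and whether astrocyte RNA gave those reads was not tested.

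Smooth muscle cells with a receptor read mostly held Ednra alone. After thinning, 20 of 1043 panel smooth muscle cells held both receptors, 745 Ednra alone, 7 Ednrb alone and 271 neither. Of 64 panel pericytes, 7 held both and 51 Ednra alone. Among 323 panel astrocytes, 27 held both, 258 Ednrb alone and 5 Ednra alone. Ependymal cells were the most mixed, with 28 of 206 holding both, 85 Ednrb alone and 20 Ednra alone.

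**Figure D4:**
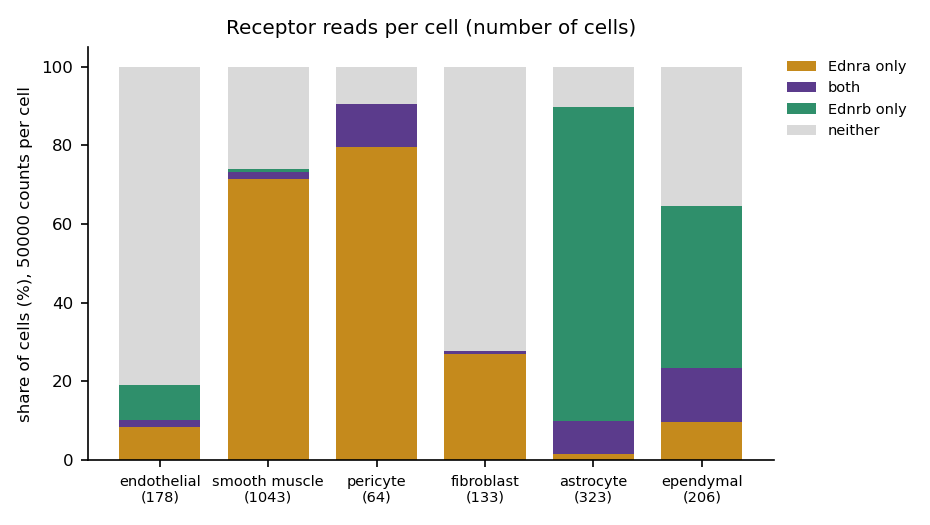
Share of cells (percent) with reads of Ednra alone, both receptors, Ednrb alone or neither, by panel cell type, after thinning each cell to 50000 reads. Of 1043 smooth muscle cells 745 hold Ednra alone, and of 323 astrocytes 258 hold Ednrb alone.

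The genotypes were compared in groups with at least 10 cells per plate on at least 2 plates of each. Notch3, the receptor gene targeted, was lower in the KO plates of the Myh11 group, at 69.0, 106 and 116 CPM against 199, 768 and 1148 CPM in WT plates. The means of log2(CPM + 1) differed by −2.55, and reads of Notch3 remained in KO cells. A gene counted as different where KO and WT plates did not overlap, the means of log2(CPM + 1) differed by at least 1, the mean reached 10 CPM and 10% of cells held a read in KO or WT. In the Myh11 group 259 of 9604 genes measured met this (2.7%), and the plates did not overlap for 9.68%.

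None of the 3 members measured in smooth muscle met the rule. Ednra differed by 0.12 on the log2 scale, from a KO mean of 393 ± 41.6 CPM and a WT mean of 377 ± 128 CPM (SD over 3 plates each), and the WT plates enclosed the KO plates. Ece1 differed by 0.97, with KO plates at 125 ± 21.7 CPM and WT plates at 74.5 ± 44.7 CPM, and its plates overlapped because plate 044 stood above plate 467. Without plate 044 the Ece1 difference was 1.38, without plate 467 it was 1.12 and in plates 467, 468, 469 and 471 alone it was 1.29, and it met the rule in those 3 settings. Ece2 gave 27.5, 24.0 and 20.5 CPM in KO plates and 16.4, 11.0 and 14.5 CPM in WT plates, which did not overlap, with a log2 difference of 0.75. Ece2 met the rule with panel smooth muscle cells (1.54) and with cells of at least 150000 reads (1.27). Over all genes, 118 to 897 met it across the alternative settings. WT plates 468 and 469 held 34 and 60 cells of the Myh11 group (29 and 53 by panel), against 206 to 338 on the other plates. Ece2 had a read in 11.8% and 10% of those cells by marker and in 10.3% and 5.66% by panel. Kcnj8, a gene that also defines the groups, met the rule in the Myh11 group, at a mean of 46.8 CPM over KO plates and 16.9 CPM over WT plates. Plates overlapped for the summed 6 pericyte panel genes, at 3929 to 4713 CPM in KO and 3055 to 3991 CPM in WT. Cnn1 plates also overlapped, at a log2 difference of −0.48. Cnn1 had a read in 46.5% of KO and 63.9% of WT cells pooled over plates. Acta2 differed by 0.07 with plates that overlapped, and Tagln by −0.36 with plates apart. The part of these markers in the Ece1 and Ece2 values was not tested. The median difference of the 3 members was 0.75 and that of all genes measured 0.04.

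In fibroblasts 0 of 5 members measured met the rule, and none had plates apart, against 6.99% and 10.8% of 11232 genes. Edn3 averaged 144 ± 83.9 CPM over the KO plates and 361 ± 246 CPM over the WT plates, a log2 difference of −1.27, and plate 467 at 240 CPM stood among the WT plates. Without plate 467 the difference was −1.71 and met the rule. Over all genes, 526 to 2745 met it across the settings. Ece1 differed by −1.03, but its direction turned with the plates, at 1.59 between plates 043 and 044 and −2.34 among the other 4. Ednra differed by −0.08, Ece2 by −0.02 and Ednrb by −2.24, where 1 cell of plate 468 held most of the Ednrb reads of its plate. The median of the 5 differences was −1.03 and that of all genes 0.15. The smooth muscle panel genes summed to 1377 to 2014 CPM in the KO plates of the Dcn group and 308 to 1085 CPM in the WT plates, and Acta2 and Tagln met the rule (means of 283 and 94.9 CPM, and 310.2 and 65.3 CPM). Their part in these differences was not tested.

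Panel ependymal cells, compared after the data were seen, allowed 3 KO plates against 2 WT plates. Of 4 members measured, 1 met the rule, where 14.5% of 11760 genes did and 27.8% had plates apart. Ece1 stood at 5.63, 10.7 and 3.33 CPM in KO plates and 16.5 and 25.9 CPM in WT plates, a log2 difference of −1.64, with 98.5% of the reads of plate 468 in 1 cell. Ednrb differed by 0.82, Ednra by −0.10 and Ece2 by −0.12. Ednrb met the rule without plate 467 (1.22) and without plate 469 (1.10), and with a pseudocount of 10 CPM no member did. Over all genes, 987 to 4083 met it across the settings. The smooth muscle panel genes summed to 1246 to 2130 CPM in the KO plates of these cells and 212 to 310.1 CPM in the WT plates, and their part was not tested.

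Arterial endothelial cells by panel, compared between genotypes after the data were seen, were too few for the rule, at 3 to 8 per plate. Edn1 had a read in 3 of 3, 3 of 3 and 7 of 7 cells on KO plates 043, 467 and 471. On WT plates 044, 468 and 469 it had a read in 6 of 8, 1 of 3 and 5 of 7 cells. Its level was 631, 892 and 789 CPM on KO plates 043, 467 and 471 and 499, 83.6 and 322 CPM on WT plates 044, 468 and 469. All 3 KO plates lay above the 3 WT plates, and of 10513 genes measured in these cells 9.98% had plates apart in either direction. Of the other members, Ednra also had plates apart, at 135, 76.4 and 121 CPM on those KO plates and 58.6, 0 and 0 CPM on those WT plates, and Edn3, Ednrb, Ece1 and Ece2 had plates that overlapped. The smooth muscle panel genes summed to 1579, 2891 and 3307 CPM on those KO plates and 1659, 429 and 195 CPM on those WT plates, and 0 to 2 of the 6 genes were at 0. Their part in the Edn1 and Ednra values was not tested.

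**Figure D5:**
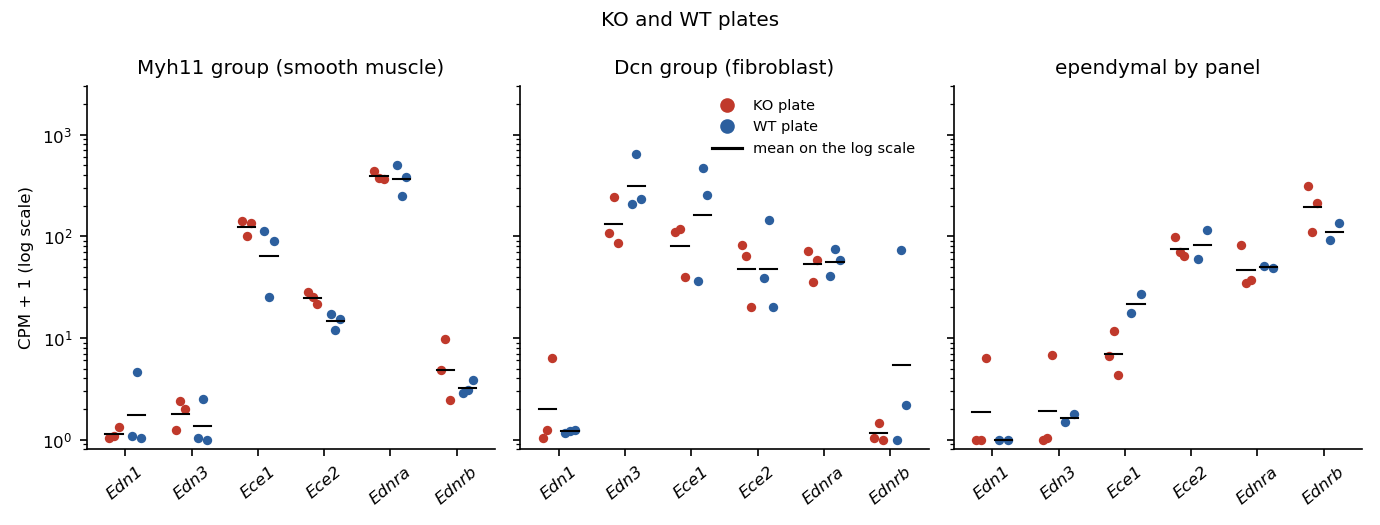
Levels (CPM + 1, log axis) of the endothelin system genes on KO (red) and WT (blue) plates in the Myh11 group, the Dcn group and panel ependymal cells, 1 point per plate, with bars at the mean on the log scale. Ednra in smooth muscle stands at 368 to 441 CPM in KO and 246 to 502 CPM in WT, and among the 3 genes measured there Ece2 is the one whose KO and WT plates are apart.

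Other genes of endothelin processing and signalling were taken as a list of 27, of which 18 were measured in the Myh11 group. There 2 met the rule upward and 0 downward, and the median log2 difference was 0.02. Of all 9604 genes measured in that group, 191 met it upward and 68 downward. Prkca, a protein kinase C gene, stood at 9.82, 35.7 and 10.2 CPM in KO plates and 8.53, 3.23 and 1.02 CPM in WT plates. Plcb3, a phospholipase C that G proteins activate, stood at 49.0, 55.0 and 56.3 CPM against 37.7, 26.8 and 17.0 CPM. Of 20 measured in the Dcn group, 0 met the rule, against 6.99% of all 11232 genes measured there. In panel ependymal cells 1 of 20 was higher in KO, the peptidase gene Mme (34.6, 17.0 and 12.5 against 0.247 and 0 CPM), and 1 was lower. Of all 11760 genes measured in those cells, 912 were higher and 797 lower by the rule, 14.5% in either direction.

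The genes most like each member were found by Pearson correlation of log2(CPM + 1) over 21 profiles of a marker group on a plate, among 16889 genes. The profiles share plates and cell types, so r is a description. Edn1 was most like Cdh8 (r = 0.93), Gimap1 (0.93), Gm16047 (0.93) and Pglyrp1 (0.92). Edn3 was most like Arhgap20 (0.96), the endothelial cadherin gene Cdh5 (0.95), 2700046A07Rik (0.94) and Itm2a (0.94). Ednra was most like Slc19a1 (0.93), Tgfb3 (0.92), Pdlim1 (0.91) and Pgf (0.90), and Ednrb like Sfrp5 (0.88), Slc14a1 (0.87), RP23-354G14.4 (0.84) and Apoc1 (0.83). Ece1 reached 0.83 with Brox, Ubr7 and Bmpr2 and 0.82 with Capn2, and Ece2 reached 0.88 with Prmt2 and 0.83 with Bhlhb9, Trim37 and Cdc16.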

How the data were processed

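The authors deposited counts of reads, not normalized, for each gene in each cell. TopHat2 2.1.1, SAMtools 0.1.18 and featureCounts (Subread 1.4.6-p5) were used with GRCm38 (mm10), per the submitters' processing notes. Annotation version, strand setting and any filter on cells: not given in the sources used here. All cell columns were used (0 left out), and 2252 of 2254 cells passed 50000 counts and 1000 genes. Positions came from GENCODE M21, which matched 27956 of 30950 rows (90.3%). Doublets were not called. Each GEO sample is 1 cell and no animal is named, so each genotype was 1 sample. The groups, CPM, the size rule (pseudocount 1 CPM) and the intervals (95%, exact) are as described in the text, computed with Python 3.11.15, numpy 2.4.6, pandas 2.3.3 and scipy 1.17.1. Thinned cells held 50000 reads. The size rule was run on simulated counts of the Myh11 group with set changes and a fixed spread between plates. That run cannot show how often the rule errs in these data, because their plates differ by other amounts. TMM factors came from edgeR 4.0.16 in R 4.3.3 as an alternative. Further alternatives were marker thresholds of 50 and 200 CPM, 2-fold dominance, panels, means of single cells, 150000 counts per cell, a pseudocount of 10 CPM, no filter on low values, sets of plates, and each plate left out. Named genes were the members, Notch3, list genes past the size rule, and the 4 genes most like each member. The 1 list gene lower in ependymal cells is not reported here. The members and lists were chosen with earlier results of these data known.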

Additional observations from a re-analysis of the deposited data

How the results depend on the processing

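No paired analysis was possible because the labels carry no replicate numbers that link KO and WT cells. In the Myh11 group, 1 member met the size rule with panels, with at least 150000 counts per cell and in plates 467, 468, 469 and 471 alone, and leaving out 1 plate gave 0 to 1. Over all genes the 259 became 118 with a pseudocount of 10 CPM, 746 with no filter, 408 in plates 043 and 044 alone, 897 in the other 4, 463 in cells with Cnn1 of at least 100 CPM, 392 in cells under it and 302 to 891 with 1 plate left out. In the Dcn group, 2 members met it in plates 043 and 044 alone (Ece1 1.59 and Ece2 1.09) and 2 in the other 4 plates (Ednrb −3.39 and Ece1 −2.34), and 0 to 2 with 1 plate left out: 2 without plate 044 (Ednrb −3.46 and Ece1 −2.12) and 1 without plate 467. The 785 genes became 1231 with no filter, 2745 in plates 043 and 044, 2645 in the other 4, and 1045 to 2324 with 1 plate left out. In panel ependymal cells, 0 members and 987 of the 1709 genes met it with a pseudocount of 10 CPM, and 1 to 2 members and 1918 to 4083 genes with 1 plate left out. Fewer plates make separation easier by construction. The cause of the other shifts was not tested. Over the alternatives, which include panels and 150000 counts per cell, the count of genes in the Myh11 group ran from 118 to 897. The number of genes measured in each alternative is not given here. Members that met the rule in an alternative were therefore not set beside the share of all genes in it. Across the alternatives, the log2 difference of Ednra in the Myh11 group ran from −0.19 to 0.51, that of Ece1 from 0.31 to 1.57 and that of Ece2 from 0.50 to 2.1, and that of Edn3 in the Dcn group from −1.71 to −0.66. The group with the highest level stayed for 6 members in 4 alternatives and for 4 with 2-fold dominance or panels. There Ednra moved from the Myh11 and Kcnj8 cells to pericytes and Ece2 to fibroblasts or ependymal cells. The panels hold no group of Myh11 and Kcnj8 cells, so with panels a move of Ednra and Ece2 was fixed in advance. Groups of 10 to 20 cells on a plate limit what a share can show.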
